A study of Mus musculus with 3 samples.

Results

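The cytochrome P450 genes of families 1 to 4 were followed through a differentiation of mouse embryonic stem (ES) cells towards liver. Members were all gene probes on the array whose name is Cyp, then 1, 2, 3 or 4, then a letter and a number. The rule took 91 probes of 64 genes, among 28577 gene names measured, and used no measured value. RNA came from the mouse ES cell line E14.1 on 3 days, with 1 Agilent one-colour array per day; the study chose the days to follow the effects of Foxa2, a transcription factor of endoderm and liver, on its targets. The day 0 array holds undifferentiated ES cells kept on gelatin in N2/B27 medium with BMP4 at 10 ng/ml and LIF at 1000 U/ml. The day 5 array holds ES cell-derived definitive endoderm, made on collagen IV with activin A at 30 ng/ml instead of BMP4 and LIF. The day 7 array holds ES cell-derived early hepatic cells, kept for 2 more days with BMP4 at 30 ng/ml and basic FGF (bFGF) at 10 ng/ml beside activin A. All 3 samples are total RNA of the same line, and the labels name no cell sorting, no genetic change and no repeat of a culture.

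Cytochrome P450 enzymes are heme proteins of the endoplasmic reticulum that insert an oxygen atom into their substrate, with electrons passed on by the reductase Por. Families 1 to 3 are best known for clearing drugs, pollutants and steroids in the adult liver and gut, and several family 2 and family 4 enzymes act on arachidonic acid, leukotrienes and other fatty acids. In the adult liver many of these genes are read under the control of Hnf4a, Foxa factors and the receptors Nr1i2 (PXR) and Nr1i3 (CAR), while the family 1 genes are classical targets of the aryl hydrocarbon receptor Ahr.

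Levels are given as normalised log2 signal, the log2 of the software's processed signal minus the array's 75th percentile, so that 0 is that percentile. A level is given with the extraction software's own error for 1 spot, which is technical. Each difference is between 2 arrays with no replicate check, so no test was possible. Calls of higher or lower needed a difference of at least 2-fold and, on the brighter array, a probe well above background. A level that was dim, that is not well above background, was raised to the lowest level among detected probes of its array where it lay below that, and the difference is then written as "at least". A dim level above that was kept, and the difference is given as measured. Over all names detected on the pair of arrays compared, the median log2 difference was -0.13 from day 0 to day 5, -0.20 from day 0 to day 7 and -0.09 from day 5 to day 7. Levels of different probes were not compared with each other, except where the signals of a marker list were summed.

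The labelled cell types were set against marker lists. All 10 ES cell markers were lower on both later days than on day 0, and all 11 definitive endoderm markers were higher. Of 14 hepatoblast and hepatocyte markers measured, 8 were higher and 3 lower on day 7 than on day 0; Afp stood at -5.95, -5.29 and 3.83 on days 0, 5 and 7, while Alb was dim (not well above background) on days 0 and 7. Markers of other tissues moved too: on day 7, 12 of 13 extraembryonic endoderm markers, 9 of 11 mesenchyme markers and 5 of 9 intestinal markers were higher than on day 0. In RNA from whole cultures, fewer cells of a type and less RNA per cell cannot be told apart.

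Most genes of these families were measurable at low signal. Through its representative probe, a gene was well above background in 41 of 64 cases on day 0 (64.1%), in 41 on day 5 (64.1%) and in 43 on day 7 (67.2%). The shares over all names were 70.6%, 69.4% and 70.1%. Detection on all 3 arrays was reached by 36 members, and on at least 1 array by 47, against 64.7% and 75.8% of all names. The other 17 members were dim on all 3 arrays. They include Cyp2e1, the ethanol-oxidising enzyme of the adult liver, Cyp2b10, the classical target of CAR, Cyp2r1, a vitamin D hydroxylase, Cyp3a16, a form of fetal and neonatal liver, and Cyp2c38, Cyp2c39, Cyp2c54, Cyp3a25 and Cyp3a44. The remaining dim genes were Cyp2a12, Cyp2a22, Cyp2d13, Cyp2d34, Cyp2g1, Cyp2j5, Cyp4a29 and Cyp4a31.

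Between day 0 and day 5, 9 members were higher and 7 lower, against a background of 12.5% higher and 12.2% lower over all names. Between day 0 and day 7, 13 members were higher and 8 lower, against 12.3% and 14.5% of all names. From day 5 to day 7, 10 members were higher, where 4.52% of all names were, and 4 were lower, where 6.35% were. Of the 10 higher members, Cyp1a1, Cyp2c29 and Cyp4x1 lost the call with the refitted normexp background correction described below. Cyp1b1 and Cyp2s1 lost it with the median over their probes. The median difference over all 64 members was 0.00 in each comparison, as it was over all names, because dim pairs count as 0. Over the 38 members well above background on both arrays the median was -0.03, 0.28 and -0.02 in the same order. The lists of higher genes had 7 in common, out of 9 for day 5 and 13 for day 7, and all 7 genes lower on day 5 were among the 8 lower on day 7; these comparisons share the day 0 array.

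**Figure D1:**
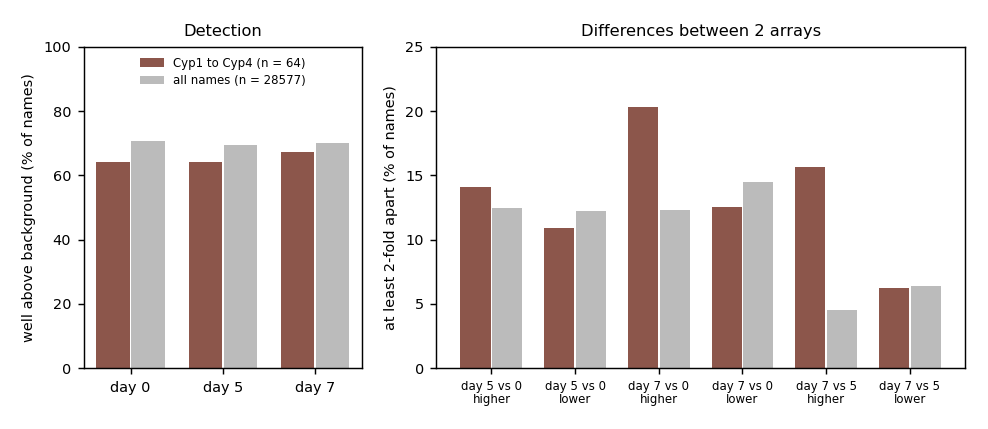
Left, the share of the 64 Cyp1 to Cyp4 genes (brown) and of all 28577 names (grey) that were well above background on each day, in percent. Right, the share at least 2-fold higher or lower in each comparison of 2 arrays; the members stand furthest from all names in the genes higher on day 7 than on day 5 (10 of 64 against 4.52%).

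**Figure D2:**
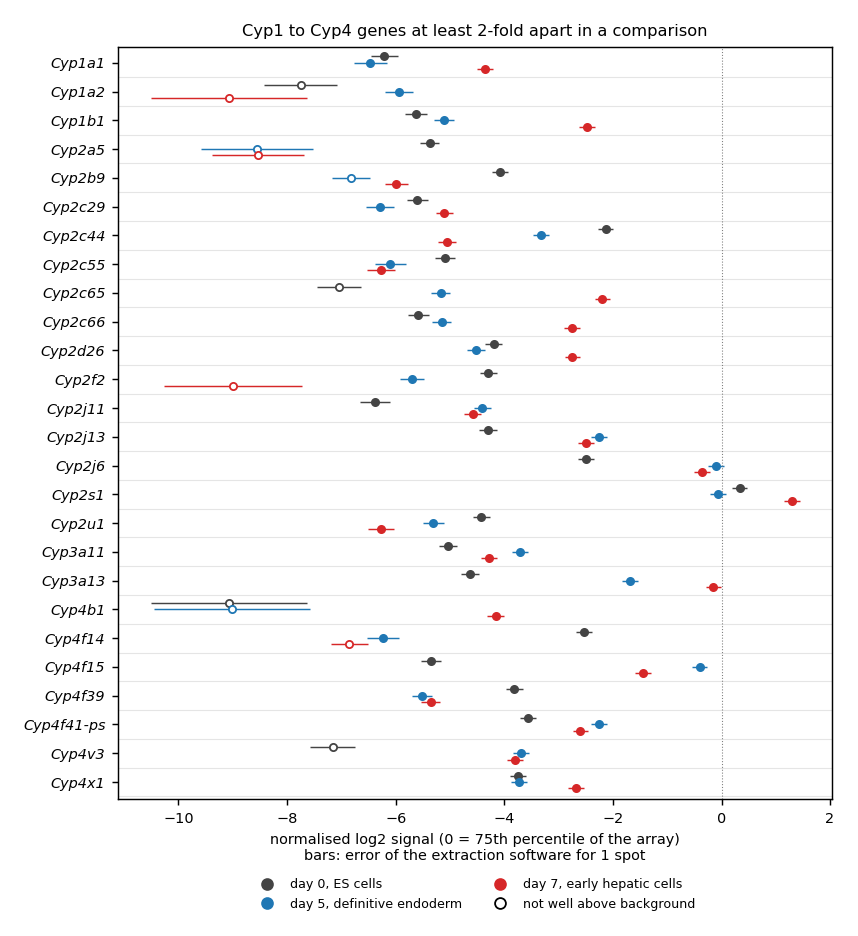
Normalised log2 signal (x axis) on day 0 (grey), day 5 (blue) and day 7 (red) of the 26 members at least 2-fold apart in any comparison; bars are the extraction software's error for 1 spot and open points were not well above background. The 17 members dim on all arrays could not be called, and the matching share of all names is not given. Rows are different probes, so points are compared along a row only: among filled points, those of Cyp4f15 on day 5 lie furthest right of their day 0 point, and those of Cyp4f14 on day 5 furthest left.

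Family 1 holds the enzymes that oxidise polycyclic aromatic compounds, and 2 of its 3 genes were higher on the day 7 array than on either earlier array. Cyp1b1, which also hydroxylates oestrogens and is expressed outside the liver, stood at -5.63 ± 0.206 on day 0, -5.12 ± 0.181 on day 5 and -2.48 ± 0.145 on day 7. Its day 7 level was thus apart from the other levels, 8.86-fold above day 0 and 6.21-fold above day 5. Cyp1a1 stood at -6.21 ± 0.249, -6.47 ± 0.301 and -4.35 ± 0.152. The levels on the earlier days lay within their errors of each other, and day 7 was 3.62-fold above day 0 and 4.33-fold above day 5. Cyp1a2, the family 1 enzyme of adult hepatocytes, was well above background on day 5 alone (-5.94 ± 0.252), and day 7 was at least 2.14-fold lower than day 5; this call was lost, at log2 differences of -0.88 to -0.95, with quantile normalisation, the authors' value table and median centring, and the second probe of Cyp1a2 was dim on all arrays. With the refitted normexp correction for background, a setting chosen after seeing the data, the day 7 differences from day 0 were 1.82 (log2) for Cyp1b1 and 0.62 for Cyp1a1, and the Cyp1a2 difference between day 5 and day 7 was -0.49. The second probe of Cyp1b1 was dim on all arrays.

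Of 9 genes of the aryl hydrocarbon receptor pathway measured, 1 was higher and 1 lower on day 7 than on day 0. The receptor gene Ahr stood at -1.27, -0.77 and 0.17 on days 0, 5 and 7, 2.71-fold higher on day 7 than on day 0. Nqo1, a quinone reductase of the same target battery, was 12.8-fold lower on day 5 and 11.6-fold lower on day 7. The repressor Ahrr stood at -4.20, -3.42 and -3.81, within the 2-fold limit in each comparison. Of 11 mesenchyme markers, 9 were higher on day 7 than on day 0, and so were 12 of 13 extraembryonic endoderm markers. All 11 mesenchyme markers were well above background, and their summed normalised signal (linear, in units of the 75th percentile) was 25.8, 40.0 and 87.7. Vim, at 4.31, 5.15 and 5.91 on days 0, 5 and 7, makes up most of each sum. The part of either cell type in the Cyp1b1 difference was not tested.

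The promoters of both genes are shown because the core of the xenobiotic response element, GCGTG, to which Ahr binds as a dimer, was found by letter search on both strands of each. They are RefSeq windows of the build GRCm38.p6 from 250 bases before to 50 bases after a start, written 5′ to 3′ on the gene's strand with the match in capitals. That start is the gene start for Cyp1b1. For Cyp1a1 it lies inside the RefSeq gene, which spans chr9:57687928-57703824. Cyp1a1 lies on the plus strand (window chr9:57697363-57697662) with the match starting at position -54 from the start used. Cyp1b1 lies on the minus strand (chr17:79715012-79715311) with the match on the opposite strand at -76, so that CACGC stands in capitals.
Cyp1a1: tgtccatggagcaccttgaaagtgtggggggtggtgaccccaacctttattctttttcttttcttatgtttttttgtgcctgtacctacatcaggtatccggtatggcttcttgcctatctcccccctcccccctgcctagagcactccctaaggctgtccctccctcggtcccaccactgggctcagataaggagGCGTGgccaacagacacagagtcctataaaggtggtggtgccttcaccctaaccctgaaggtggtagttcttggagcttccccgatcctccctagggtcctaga
Cyp1b1: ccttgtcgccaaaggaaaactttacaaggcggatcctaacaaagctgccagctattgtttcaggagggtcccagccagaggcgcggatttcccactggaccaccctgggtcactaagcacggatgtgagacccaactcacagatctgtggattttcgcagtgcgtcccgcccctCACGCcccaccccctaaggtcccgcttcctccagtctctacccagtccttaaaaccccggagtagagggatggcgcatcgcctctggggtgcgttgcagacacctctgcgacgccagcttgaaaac
The same 5 letters occur in 32.4% of all 32851 promoter windows and in 11 of the 49 members with a window (22.4%), so a match there is common.

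Family 2 is the largest, with 39 genes, of which 4 were higher and 5 lower on day 5, and 6 higher and 6 lower on day 7, than on day 0, which is near the shares of all names given above. Within it the Cyp2c genes, epoxygenases of arachidonic acid and enzymes of drug clearance, went different ways. Cyp2c65 was not well above background on day 0 (-7.05 ± 0.40) and stood at -5.17 ± 0.179 on day 5 and -2.19 ± 0.145 on day 7. Day 5 was at least 3.08-fold and day 7 at least 24.3-fold above day 0, and day 7 was 7.88-fold above day 5. Its neighbour Cyp2c66 stood at -5.59 ± 0.194, -5.15 ± 0.175 and -2.75 ± 0.145. Cyp2c66 was thus 1.35-fold apart between days 0 and 5 and 7.16-fold higher on day 7 than on day 0. These 2 genes are known from the intestine more than from the liver.

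Another 3 Cyp2c genes differed at least 2-fold. Cyp2c44, now named Cyp2c23, an arachidonic acid epoxygenase known from the kidney, stood at -2.14 ± 0.145, -3.32 ± 0.147 and -5.06 ± 0.163 and was lower at each later day, by 2.27-fold on day 5 and 7.58-fold on day 7. Cyp2c55, known from the colon, stood at -5.10 ± 0.181, -6.10 ± 0.283 and -6.27 ± 0.264, at the 2-fold limit on day 5 (2.00-fold lower) and 2.26-fold lower on day 7. The day 7 call of Cyp2c55 was lost with the authors' value table. Cyp2c29, an abundant enzyme of adult liver, stood at -5.60, -6.29 and -5.10, and its day 7 level was 2.28-fold above day 5 but 1.41-fold from day 0. Cyp2c70 and the representative probe of Cyp2c37 stayed within 1.07-fold of day 0 on both days, but the second probe of Cyp2c37, at -5.91 on day 0 and dim later, was at least 2.19-fold lower on day 7. With the refitted normexp correction, the day 7 differences from day 0 were 2.44 (log2) for Cyp2c65, 1.65 for Cyp2c66, -2.05 for Cyp2c44 and -0.66 for Cyp2c55, the day 5 difference of Cyp2c65 was 0.46, and Cyp2c29 differed by 0.39 between days 5 and 7.

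The promoters of Cyp2c65 and Cyp2c66 are shown because the genes are neighbouring P450 genes on chromosome 19, were both higher on day 7, and have alike windows. They share 256 aligned bases (85.3% of the 300-base window), the seventh highest of 1176 pairs of members. The median of the pairs was 2.67%. The alignment put no cost on unaligned ends, so unlike windows could overlap in few bases, and this median is no baseline. Each holds the 8 letters CAAAGTCC, the core of a site bound by Hnf4a, here in capitals, starting at -116 in Cyp2c65 (window chr19:39060756-39061055, plus strand) and at -104 in Cyp2c66 (chr19:39113648-39113947, plus strand).
Cyp2c65: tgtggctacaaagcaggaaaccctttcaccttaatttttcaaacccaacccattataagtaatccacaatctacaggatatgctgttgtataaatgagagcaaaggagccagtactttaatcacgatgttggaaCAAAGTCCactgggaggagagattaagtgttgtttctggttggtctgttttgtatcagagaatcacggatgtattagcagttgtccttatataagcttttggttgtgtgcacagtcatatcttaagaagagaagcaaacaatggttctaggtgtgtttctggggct
Cyp2c66: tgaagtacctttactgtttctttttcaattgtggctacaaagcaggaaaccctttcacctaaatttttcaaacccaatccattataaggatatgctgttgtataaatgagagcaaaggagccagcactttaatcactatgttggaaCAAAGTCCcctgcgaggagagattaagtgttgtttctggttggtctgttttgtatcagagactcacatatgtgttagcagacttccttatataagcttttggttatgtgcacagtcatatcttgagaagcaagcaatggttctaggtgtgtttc
Those letters, searched on both strands, were in 1.42% of all promoter windows and in 10 of 49 members (20.4%). The 10 genes are Cyp2a4, Cyp2a5, Cyp2c40, Cyp2c65, Cyp2c66, Cyp2c70, Cyp3a11, Cyp3a16, Cyp3a41a and Cyp4f18, and 2 of them were higher and 1 lower on day 7 than on day 0. A match was therefore found in genes that were higher, lower, within 2-fold and dim alike, and it is a description of letters, not of binding. Several of these genes have alike windows, such as Cyp2a4 with Cyp2a5 (98.0%) and Cyp3a16 with Cyp3a41a (93.3%). The 20.4% is therefore not a share of unrelated windows. The longer CAAAGTCCA, which overlaps it, was in 0.475% of all windows and 6 members, and the forkhead letters TGTTTAC were in 3.65% and 7 members.

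Hnf4a itself was 6.70-fold above its day 0 level on day 5 and 23.1-fold above it on day 7. Beside Cyp2c65 and Cyp2c66, 5 of 9 intestinal markers were higher on day 7 than on day 0, and the summed normalised signal of the 9 (linear, in units of the 75th percentile) was 0.739, 3.44 and 14.8 on days 0, 5 and 7. Vil1 and Lgals2 (3.08 and 2.04 on day 7) make up most of the day 7 sum. Of the defining intestinal genes, Cdx2 was 18.8-fold lower on day 5 and 6.36-fold higher on day 7 than on day 0, while Cdx1, Muc2 and Cdh17 were dim on all 3 arrays. The part of intestinal cells in the Cyp2c result was not tested.

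The Cyp2j genes encode epoxygenases of arachidonic acid, and 3 of their 5 members were higher on both later days by their representative probes. Cyp2j6 stood at -2.50 ± 0.145, -0.10 ± 0.144 and -0.36 ± 0.144, so that both later arrays lay apart from day 0, by 5.29-fold and 4.41-fold, and near each other. Cyp2j13 stood at -4.30 ± 0.159, -2.25 ± 0.145 and -2.49 ± 0.145 (4.14-fold and 3.50-fold higher), and Cyp2j11 at -6.38 ± 0.274, -4.41 ± 0.157 and -4.58 ± 0.155 (3.92-fold and 3.47-fold higher). Cyp2j9, next to Cyp2j6, stood at -1.25, -1.32 and -1.86, within 2-fold of day 0. Only for Cyp2j6 did another probe give the same call. Its second probe was dim on day 0 and 7.42-fold and 6.87-fold higher on the later days, as measured with that dim level.

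For Cyp2j13 and Cyp2j11 the probes disagreed, so the direction depends on the probe. The 3 Cyp2j13 probes are shown by their first 30 of 60 bases, as deposited, since they decide the call. The representative probe spans chr4:95712305-95723288 of mm9 and so crosses a splice junction, other probe 1 lies at chr4:95711984-95712043 and other probe 2 at chr4:95738259-95738318, all on the minus strand.
Cyp2j13, representative probe: atgggcagtttaagaagagagaatcttttc
Cyp2j13, other probe 1: aagttggaaggaattagactaaggtcagtg
Cyp2j13, other probe 2: caaagaagccttttctcacctggatgaaaa
Other probe 1 stood at -4.47 on day 0, -4.47 on day 5 and -7.43 on day 7, where it was dim, at least 5.93-fold below day 0. Other probe 2 stood at -6.02, -6.13 and -6.56, within 2-fold throughout. The second probe of Cyp2j11 was well above background on day 0 alone and at least 2.50-fold lower on day 7. Both Cyp2j11 calls were lost with the refitted normexp correction and with the median over its probes. Whether the probes report different transcripts was not tested.

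**Figure D3:**
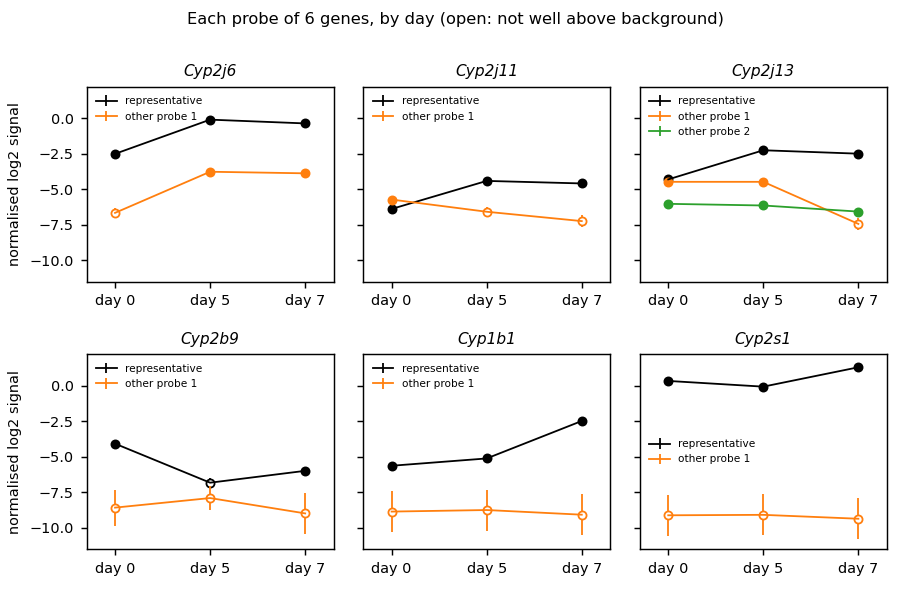
Normalised log2 signal by day of each probe of 6 genes, with the extraction software's error for 1 spot as bars and open points for values not well above background. The Cyp2j6 probes run in parallel, the representative probes of Cyp2j11 and Cyp2j13 go up from day 0 where another probe goes down, and the second probes of Cyp2b9, Cyp1b1 and Cyp2s1 are dim on all days.

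Of the 10 Cyp2a, Cyp2b and Cyp2f genes on chromosome 7, none was called higher than on day 0, 3 were called lower on both later days, and Cyp2a12, Cyp2a22 and Cyp2b10 were dim on all arrays. Over all names, 12.5% were higher and 12.2% lower on day 5, and 12.3% and 14.5% on day 7. Counts among 10 genes therefore do not set this row apart. Cyp2b9 stood at -4.08 ± 0.152 on day 0, was dim on day 5 (-6.82 ± 0.353) and stood at -5.99 ± 0.212 on day 7, at least 6.44-fold and 3.76-fold lower. Its close relative Cyp2b13 stood at -5.91, -6.35 and -6.17, within 2-fold. Cyp2a5, a coumarin hydroxylase, was well above background on day 0 alone (-5.38 ± 0.182), at least 2.62-fold and 3.17-fold lower on days 5 and 7. Cyp2a4, a testosterone hydroxylase, stood at -4.71, -4.81 and -4.58 by a junction-crossing probe, while its other 2 probes were dim. Cyp2f2, which activates naphthalene in airway club cells, stood at -4.29 ± 0.155 and -5.70 ± 0.218 and was dim on day 7 (-8.99 ± 1.27), 2.65-fold and at least 6.71-fold lower than day 0.

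The Cyp2a4 and Cyp2a5 promoters are shown because they are nearly the same, with 294 bases shared (98.0% of the window, the second highest pair), while the calls of the genes differed. Both carry CAAAGTCC in capitals, at -55 in Cyp2a4 (window chr7:26306942-26307241) and at -56 in Cyp2a5 (chr7:26835089-26835388), both on the plus strand.
Cyp2a4: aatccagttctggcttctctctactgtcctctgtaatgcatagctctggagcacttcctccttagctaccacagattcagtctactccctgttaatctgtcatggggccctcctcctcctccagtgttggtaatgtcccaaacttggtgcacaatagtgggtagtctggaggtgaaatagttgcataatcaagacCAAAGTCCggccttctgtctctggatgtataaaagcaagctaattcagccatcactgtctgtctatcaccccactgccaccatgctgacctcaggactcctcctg
Cyp2a5: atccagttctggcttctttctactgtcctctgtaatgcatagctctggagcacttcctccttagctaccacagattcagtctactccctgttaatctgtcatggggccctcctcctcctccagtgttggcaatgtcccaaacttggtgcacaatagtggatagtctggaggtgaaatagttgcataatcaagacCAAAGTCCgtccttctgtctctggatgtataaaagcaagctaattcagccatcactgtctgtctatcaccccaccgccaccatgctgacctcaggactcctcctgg
The highest pair of all was Cyp2b13 with Cyp2b9 (99.3%), whose calls differed in the same way, within 2-fold against lower on both later days. The Cyp2b9 calls rest on 1 probe. Its second probe was dim on all arrays, and both calls were lost with the median over its probes. No pair of probes of different members shared 45 or more of 60 bases, but hybridisation to the many other P450 transcripts was not checked. With the refitted normexp correction the differences of Cyp2a5 from day 0 were -0.73 (log2) on day 5 and -0.85 on day 7, and the Cyp2f2 difference on day 5 was -0.70.

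The remaining family 2 genes were mixed. Cyp2s1, an enzyme of epithelia outside the liver, stood at 0.33 ± 0.144, -0.07 ± 0.144 and 1.29 ± 0.144, with day 7 the highest, 2.57-fold above day 5 and 1.95-fold from day 0. Cyp2d26 stood at -4.20 ± 0.154, -4.52 ± 0.160 and -2.74 ± 0.145, 2.74-fold above day 0 on day 7, and was the only 1 of 7 Cyp2d genes called in any comparison. Cyp2u1, a fatty acid hydroxylase, stood at -4.42 ± 0.156, -5.31 ± 0.188 and -6.27 ± 0.237, 1.84-fold from day 0 on day 5 and 3.60-fold lower on day 7. Cyp2d9, Cyp2d10, Cyp2d12, Cyp2d22 and Cyp2w1 were within 2-fold in every comparison. With the refitted normexp correction Cyp2d26 and Cyp2u1 differed by 0.97 and -0.97 (log2) between days 0 and 7.

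Family 3, the main drug-clearing family of the adult liver, had 3 of 6 genes well above background, the same number on each day. Cyp3a13, known from gut and liver, stood at -4.63 ± 0.159 on day 0, -1.69 ± 0.145 on day 5 and -0.15 ± 0.144 on day 7. Its levels were apart on all 3 arrays, 7.68-fold and 22.4-fold above day 0 and 2.91-fold higher on day 7 than on day 5. Cyp3a11, the chief adult hepatic member and a target of PXR, stood at -5.03 ± 0.169, -3.71 ± 0.149 and -4.28 ± 0.151, 2.50-fold higher on day 5 and 1.68-fold from day 0 on day 7. Cyp3a41a stood at -5.76, -5.73 and -5.69. The refitted normexp correction left Cyp3a13 at 2.19 and 3.61 (log2) above day 0 and put Cyp3a11 on day 5 at 0.72.

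Family 4 enzymes hydroxylate the ends of fatty acids, and its Cyp4f genes, which inactivate leukotrienes, held the largest differences measured on both arrays in either direction. Cyp4f15 stood at -5.35 ± 0.188 on day 0, -0.40 ± 0.144 on day 5 and -1.44 ± 0.144 on day 7. It was 30.9-fold higher on day 5 and 15.0-fold higher on day 7 than on day 0, with day 7 2.05-fold below day 5. The call between days 5 and 7 was lost with median centring and with the refitted normexp correction, at the smallest -0.89 (log2). Cyp4f14, the next P450 gene on chromosome 17, stood at -2.53 ± 0.145 and -6.24 ± 0.295 and was dim on day 7 (-6.86 ± 0.344). Cyp4f14 was 13.0-fold lower on day 5 and 20.0-fold lower on day 7, the latter as measured with a dim level. The neighbours thus had opposite orders, with day 0 the lowest array for Cyp4f15 and the highest for Cyp4f14.

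Other Cyp4f genes lay between these extremes. Cyp4f39, which hydroxylates very long fatty acids of the skin barrier, stood at -3.81 ± 0.149, -5.51 ± 0.190 and -5.36 ± 0.171, 3.25-fold lower on day 5 and 2.92-fold lower on day 7. The pseudogene Cyp4f41-ps stood at -3.56 ± 0.148, -2.26 ± 0.145 and -2.60 ± 0.145, 2.46-fold higher on day 5 and 1.95-fold from day 0 on day 7. Cyp4f13, Cyp4f16 and Cyp4f18 stayed within 2-fold, with differences from day 0 between 0.15 and 0.56 (log2). With the refitted normexp correction the differences from day 0 were 3.59 and 2.66 for Cyp4f15, -2.11 and -2.28 for Cyp4f14, and -0.92 and -0.95 for Cyp4f39; in that setting Cyp3a13 on day 7 held the largest difference.

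**Figure D4:**
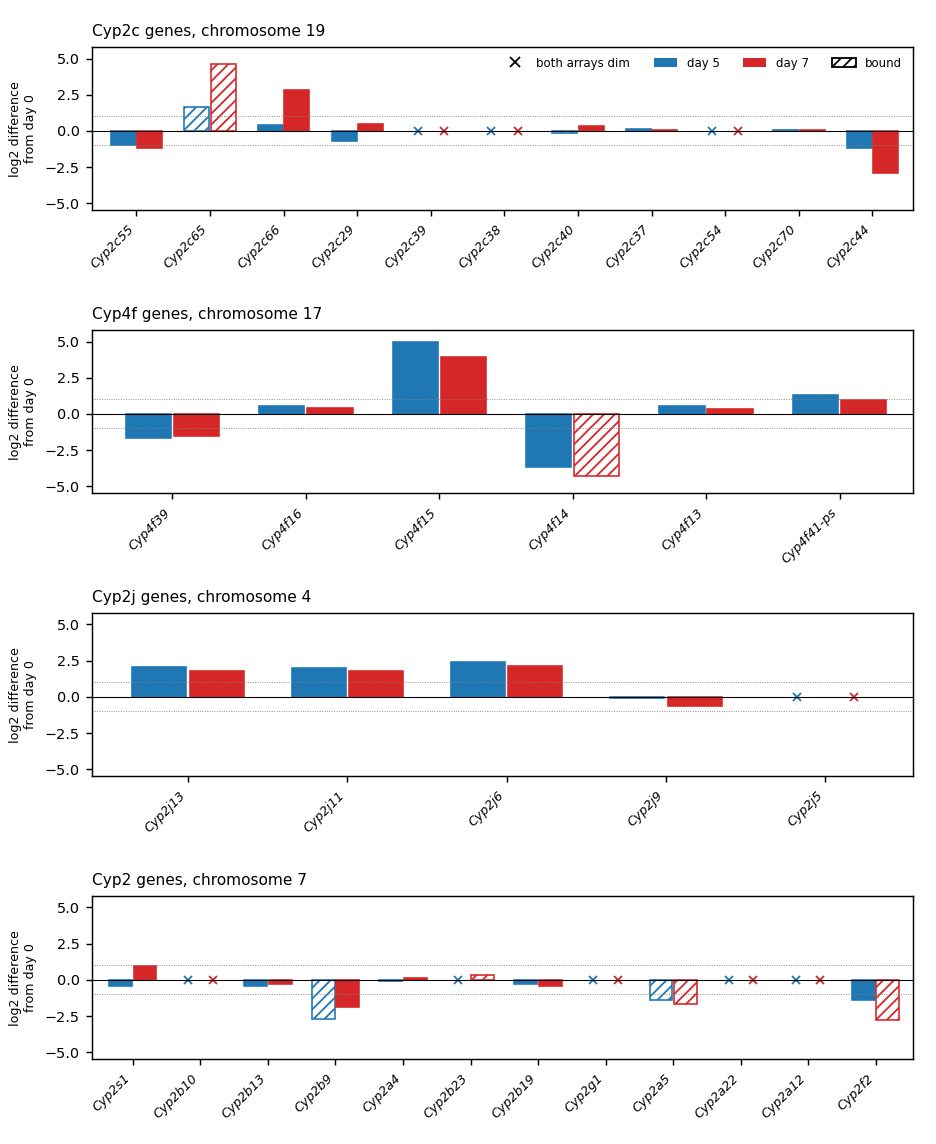
Log2 difference from day 0 on day 5 (blue) and day 7 (red) of members on 4 chromosomes, in the gene order of RefSeq GRCm38.p6 and not to scale. Shown are the Cyp2c, Cyp4f and Cyp2j members and the Cyp2 members of chromosome 7 without Cyp2r1 and Cyp2e1. Other members on these chromosomes, and genes that are no members, are left out. Hatched bars have 1 dim array and are bounds, except Cyp4f14 on day 7, whose dim level was not raised. Crosses mark genes dim on both arrays, and dotted lines mark 2-fold. Cyp4f15 and Cyp4f14 stand side by side with opposite signs, and Cyp2c65 and Cyp2c66 are the tall upward bars of the Cyp2c genes on day 7.

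Outside the Cyp4f row, 3 family 4 genes were higher and the Cyp4a genes were not. Cyp4v3, the mouse counterpart of human CYP4V2, was dim on day 0 (-7.16 ± 0.410) and stood at -3.69 ± 0.149 and -3.81 ± 0.148, at least 8.62-fold and 7.91-fold higher. Cyp4b1, an enzyme of lung and kidney, was dim on days 0 and 5 (-9.07 ± 1.44 and -9.01 ± 1.44) and stood at -4.16 ± 0.150 on day 7, at least 6.21-fold above day 0 and 6.08-fold above day 5. Cyp4x1, known from brain, stood at -3.75 ± 0.150, -3.73 ± 0.150 and -2.68 ± 0.145, 2.10-fold above day 0 on day 7 (a log2 difference of 0.74 after the refitted normexp correction). None of the 6 Cyp4a genes, targets of Ppara in adult liver, was called in any comparison, and 4 were well above background on at least 1 array. Of 5 lung markers, 1 was higher on day 7 than on day 0, their summed normalised signal was 0.625, 2.12 and 0.456, and Nkx2-1 and Sftpc were dim on all arrays. Foxj1, at -0.78, 1.06 and -1.31, makes up most of each lung sum. Kidney proximal tubule markers summed to 1.98, 1.62 and 34.3, with 2 of 5 higher on day 7 and Slc34a1 and Umod dim on all arrays; the 2 higher genes, Lrp2 and Cubn (4.52 and 3.49 on day 7), make up most of that sum and are also on the extraembryonic endoderm list; their part in the Cyp4b1 difference was not tested.

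Among the genes that serve these enzymes, all 9 electron donors and membrane partners of P450 were well above background on each array and none differed 2-fold in any comparison, with Por at 2.34, 2.88 and 2.86. Of 13 genes of heme synthesis and breakdown, 1 was higher and 2 lower than on day 0 on each later day. The heme synthesis gene Ppox was 2.91-fold and 2.22-fold higher on days 5 and 7, and the biliverdin reductase Blvra was 16.1-fold and 10.2-fold lower. The heme oxygenase Hmox1 was 2.22-fold lower on day 5, and the erythroid synthase Alas2 was 2.42-fold lower on day 7. The housekeeping synthase Alas1 stood at 2.39, 2.13 and 2.48.

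The regulators differed more. Of 22 nuclear receptors and hepatic factors measured, 8 were higher and 5 lower on day 5, and 7 higher and 3 lower on day 7, than on day 0. Hnf4a, given above, was among the higher genes on both days. Nr1h4, the bile acid receptor, was well above background on day 0 alone. The drug sensor Nr1i2 was dim on all arrays and Nr1i3 stood at -4.03, -4.75 and -5.03, within 2-fold.

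The enzymes that act after or beside P450 moved apart from one another. Of 26 conjugating and other drug-metabolising enzymes, 2 were higher and 7 lower on day 5, and 4 higher and 11 lower on day 7, than on day 0. On day 7 the flavin monooxygenase Fmo1 was at least 117-fold and the glucuronosyltransferase Ugt2b34 21.8-fold above day 0. The soluble epoxide hydrolase Ephx2, which degrades the epoxides that Cyp2c and Cyp2j enzymes make from arachidonic acid, stood at 5.81, 1.07 and 2.11, 26.8-fold lower on day 5 and 13.1-fold lower on day 7. Of 16 other genes of arachidonic and fatty acid metabolism, 1 was higher and 5 lower on day 5, and 6 higher and 4 lower on day 7. Pla2g4a, the phospholipase that frees arachidonic acid, was 4.75-fold higher on day 7. Of 17 P450 genes of other families, 2 were higher and 1 lower on day 5, and 2 higher and 3 lower on day 7.

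**Figure D5:**
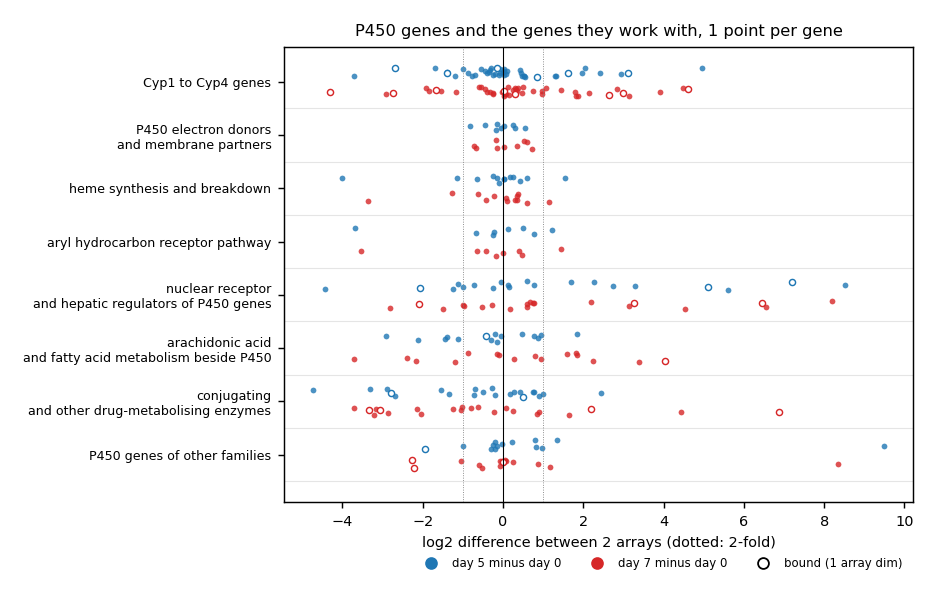
Log2 difference from day 0 on day 5 (blue) and day 7 (red), 1 point per gene, for the Cyp1 to Cyp4 genes and 7 lists of genes they work with. Open points have 1 dim array and are bounds where the dim level was raised. Genes dim on both arrays are left out, and dotted lines mark 2-fold. The electron donors lie between the dotted lines, while the members and every other list reach past them on both sides.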

How the data were processed

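Per the file headers, the authors extracted the arrays with Agilent Feature Extraction 10.5.1.1, and for each spot the deposited files give a linear fluorescence intensity, with probe positions of mm9. The deposited value table holds log2 values, which correlated across probes with each array's own log2 processed signal at 0.9998 or above; all 3 columns have a median of 7.17, so they were equalised, by a step not given in the sources used here. The log2 processed signal minus each array's 75th percentile was used (1564, 2051 and 2053 intensity units on days 0, 5 and 7). Control and flagged spots were left out (no member spot was flagged), and spots of 1 probe averaged. A probe was well above background if over 50% of its spots were. A gene's representative probe was the one well above background on the most arrays, then the brightest. All members called in a comparison are named, and of other lists up to 4 genes each way. The values of a few listed regulators are not reported here. Members and lists were chosen with earlier results of these data known. The number of arrays limits the precision. Tools were Python 3.11.15, pandas 2.3.3, numpy 2.4.6 and, for normexp and quantile normalisation, limma 3.58.1 in R 4.3.3. Promoters were matched by symbol to RefSeq for 49 of 64 members.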

Additional observations from a re-analysis of the deposited data

How the results depend on the processing

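No paired analysis was possible because each day has 1 array. Of the 51 differences of at least 2-fold between days, all 51 kept their sign with quantile normalisation, median centring, the authors' value table, no filter on dim probes and flagged spots kept, and 49 to 51 stayed at least 2-fold. All 51 also kept their sign with the refitted normexp correction (chosen after seeing the data; local backgrounds over 2 times the array's median replaced by it), but 29 stayed at least 2-fold, and lower members numbered 2, 4 and 1 (day 5 against day 0, day 7 against day 0, day 7 against day 5). With the median over each gene's probes taken, 42 kept their sign, 8 became 0 and Cyp2j13 on day 7 became -2.09. With probes well above background on all arrays, lower members numbered 3, 4 and 2 and the median for day 7 against day 0 was 0.28. With median centring 2 members were lower on day 7 than on day 5, and with no filter 13 and 9 were lower on day 7 than on days 0 and 5. Low signal is a limit throughout: the lowest level well above background was -6.79, -6.76 and -7.04 on days 0, 5 and 7. A dim level below it gives only a bound, and a dim level above it was kept as measured.

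With normexp as planned, a few spots of very bright local background set the fitted background mean (-1242 intensity units on day 0, -12.7 on day 5 and -344 on day 7), and 14 of the 51 differences changed sign. Higher members numbered 0, 1 and 31, lower members 34, 28 and 0, and the medians were -1.50, -0.88 and 0.92. The changed values for day 5 against day 0 were -2.70 (Cyp2j11), -1.43 (Cyp2j13), -2.20 (Cyp3a11), -0.56 (Cyp3a13) and -1.16 (Cyp4f41-ps). For day 7 against day 0 they were -1.35 (Cyp1a1), -0.78 (Cyp1b1), -0.84 (Cyp2c66), -0.91 (Cyp2d26), -1.40 (Cyp2j11), -0.90 (Cyp2j13), -0.20 (Cyp4f15) and -0.91 (Cyp4x1), and for day 7 against day 5 0.48 (Cyp2c44).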
